A study of Mus musculus with 18 samples.

Results

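*Tbr1*, *Bcl11b*, *Fezf2*, *Sox5*, *Foxp2*, *Rorb*, *Cux1*, *Cux2* and *Pou3f2* encode transcription factors that give cortical projection neurons their layer and target identity. These 9 genes were chosen by name, as textbook markers of cortical layers, with earlier results of these data known. They are among the 23038 gene symbols of the RNA-seq abundance table, and all 9 were measured in every cortex. The study asked which transcripts change in mouse brain when *Nova1* or *Nova2*, genes for a pair of related neuronal splicing regulators that bind YCAY motifs (Y is C or T) in RNA, is lost. Whole cortex was taken at embryonic day 18.5 on a CD1 background, 3 mice in each of 4 groups. The groups were *Nova2-/-* mice, wild-type mice set beside them as littermates (wild-type mice 1 to 3), *Nova1-/-* mice, and wild-type mice set beside those (wild-type mice 4 to 6). Both knockouts are constitutive alleles. The *Nova2* allele was made by placing an IRES-Cre cassette at the first coding exon. No other allele or treatment was given for any group, and midbrain and hindbrain were not analysed here for abundance.

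Projection neurons of the cortex are born in sequence from progenitors near the ventricle and settle in layers, the deep layers first. Neurons of layer 6 project mainly to the thalamus, those of layer 5 to the brainstem and spinal cord, layer 4 receives thalamic input, and many neurons of layers 2 and 3 project across the corpus callosum. The factors described here act partly by repressing each other, so that a neuron settles on one fate, and several of them are also expressed outside the cortical plate, *Bcl11b* and *Foxp2* in the striatum, *Foxp2* in the thalamus and *Pou3f2* in progenitors. In whole cortex, fewer cells of a type and less RNA per cell cannot be told apart.

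The 12 libraries held 16518172 to 31362018 estimated counts each, and the shallowest, wild-type mouse 2, had a count for 21791 genes where the other 11 had 18397 to 19396. Levels are given as CPM, counts scaled to a common library total and adjusted between libraries by the trimmed mean of M-values (TMM). *Nova1* was at 0.0341 to 0.211 CPM in *Nova1-/-* cortex and at 41.5 to 92.9 CPM in the other 9 cortices. *Nova2* was at 17.0 to 21.5 CPM in *Nova2-/-* cortex and at 31.0 to 63.6 CPM in the other 9. Where on the locus the *Nova2* reads of *Nova2-/-* cortex fell was not tested. The tissue label was checked against 9 pan-excitatory neuron genes, all above 0 in every mouse, whose summed level was 2895 to 3608 CPM.

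Marker genes of the meninges separated the wild-type mice 1 to 3 from the other 9 mice. The 15 meningeal genes (collagens and others, none at 0) summed to 309 to 779.9 CPM in those 3 mice, to 1211 to 1362 in *Nova2-/-*, to 1146 to 1458 in the wild-type mice 4 to 6 and to 985 to 1166 in *Nova1-/-*. In *Nova2-/-* against its littermates 4 of the 15 passed the test, all higher, beside 1.06% of all genes tested in either direction. This list and those below were chosen with earlier results of these data known, so such counts are a description. Progenitor genes (10, none at 0) summed to 914 to 990.2 CPM in *Nova2-/-* and to 781 to 843 in its littermates, and 0 of 10 passed the test there, with 4 at an unadjusted p below 0.05 beside 19.2% of all genes. The part of these differences in the results below was not tested.

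In wild-type cortex the 9 genes ranged from 19.2 CPM (*Fezf2*) to 233 CPM (*Cux1*) in single mice. They were ordered per kilobase of exon, since longer transcripts collect more reads. Exon lengths were the union of annotated exons in GENCODE M1 (mouse build mm9). The values are means ± SD over the 6 wild-type mice in CPM per kb. *Pou3f2*, the upper-layer POU-homeodomain factor, stood at 75.9 ± 12.5 on an annotated length of 1690 nt. RefSeq gives this intronless gene 6272 nt, and on that length its level was 20.4, at place 3 in the order. *Cux1* followed at 25.4 ± 2.67 and *Bcl11b* at 21.0 ± 2.65, with ranges that overlapped. On the exon union *Tbr1* was at 15.4 ± 1.34, at place 4 in every one of the 12 cortices.

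On the exon union the other 5 genes formed a lower set in which each neighbour overlapped the next. Their levels in CPM per kb were 10.1 ± 1.20 for *Fezf2*, 9.84 ± 1.10 for *Sox5*, 8.69 ± 0.39 for *Foxp2*, 7.96 ± 0.65 for *Rorb* and 7.79 ± 1.41 for *Cux2*. The order depended on the length used. With the longest annotated transcript in place of the exon union, 5 of the 9 genes changed place, among them *Foxp2*, which was then at 17.3 CPM per kb and above *Fezf2*. *Sox5* was then at 19.5 CPM per kb, with a range that overlapped that of *Bcl11b*, at 21.0. *Tbr1* was then at 21.2, at place 3. The lower set of 5 genes thus did not hold on that length. *Foxp2* and *Sox5* have 19 and 14 annotated transcripts, and their exon unions are 13457 and 14376 nt long where their longest transcripts are 6760 and 7243 nt.

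**Figure D1:**
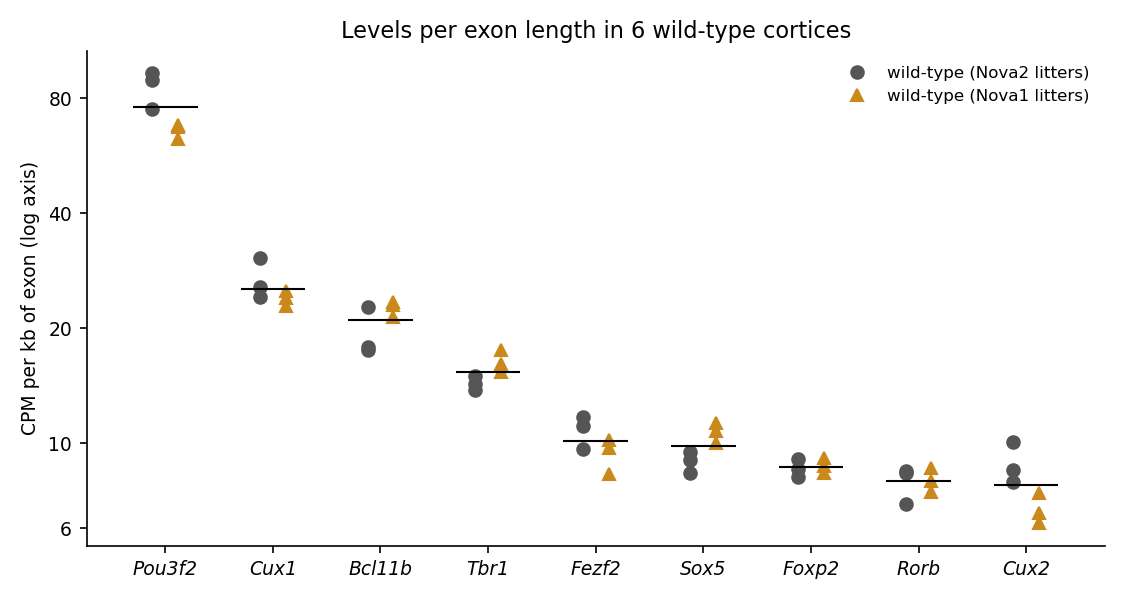
Level of each of the 9 genes per kb of annotated exon (log axis) in the 6 wild-type cortices, circles for wild-type mice 1 to 3 and triangles for wild-type mice 4 to 6, with the mean as a bar. With the exon union as the length, *Pou3f2*, *Cux1*, *Bcl11b* and *Tbr1* had means of at least 15.4 CPM per kb and the other 5 genes of at most 10.1.

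In *Nova2-/-* cortex 0 of the 9 genes passed the test against littermates (edgeR quasi-likelihood test, Benjamini-Hochberg adjustment over 15691 genes, FDR below 0.05), where 1.06% of all genes tested did. Unadjusted p was below 0.05 for 2 of the 9, *Sox5* and *Foxp2*, beside 19.2% of all genes. The same 2 genes were the ones whose 3 knockout mice did not overlap the 3 littermates, beside 25.9% of all genes. The median log2 fold change of the 9 was 0.10, that of all genes tested 0.01, and the median absolute change was 0.10 for the 9 against 0.16 for all genes. The count of 0 depended on the tool: DESeq2 called 2 of the 9 beside 5.39% of all genes, and edgeR's exact test called 1 beside 3.98%.

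*Foxp2*, a forkhead factor of layer 6 corticothalamic neurons, lies at chr6:14851349-15391977 (plus strand, mm9). It was at 123, 116 and 110.1 CPM in wild-type mice 1 to 3 and at 146, 145 and 142 CPM in the 3 *Nova2-/-* mice. The *Nova2-/-* mice were all above their littermates and also above the 6 mice of the *Nova1* comparison, the highest of which was at 126 CPM. The log2 fold change was 0.32 (SE 0.06), a fold of 1.24 with a 95% interval of 1.13 to 1.38, with an adjusted p of 0.0639 by edgeR's quasi-likelihood test. *Foxp2* passed with DESeq2 (adjusted p = 0.00710), with edgeR's exact test (0.0202) and when all 12 cortices shared one fit (0.0133), in which 8.23% of all genes passed.

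*Sox5*, an SRY-box factor that controls the timing of deep-layer corticofugal neuron development, lies at chr6:143776945-144730497 (minus strand, mm9). Its levels were 120.4, 137 and 129.9 CPM in wild-type mice 1 to 3 and 161, 167 and 149 CPM in the *Nova2-/-* mice. Every knockout value lay above every littermate value, while of wild-type mice 4 to 6, at 144, 155 and 163 CPM, the higher 2 lay within the knockout range. The log2 fold change was 0.31 (SE 0.08), a fold of 1.24 with a 95% interval of 1.10 to 1.39, with an adjusted p of 0.0924 by the quasi-likelihood test. DESeq2 gave an adjusted p of 0.0287, the fit of all 12 cortices 0.0208 and edgeR's exact test 0.0515.

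Within the quasi-likelihood test of these 6 mice, whether the 2 genes passed also depended on a single littermate. Without wild-type mouse 3 both did, *Foxp2* at a log2 fold change of 0.28 (adjusted p = 0.0220) and *Sox5* at 0.31 (adjusted p = 0.0429), and the number of all genes called went from 166 to 1433 (9.03%). Without any one of the other 5 mice neither gene passed, and the adjusted p in those fits reached 0.267 for *Foxp2* and 0.311 for *Sox5*. Over all 6 such fits the log2 fold change stayed between 0.28 and 0.35 for *Foxp2* and between 0.25 and 0.36 for *Sox5*. Wild-type mouse 3 had the highest level of the 15 meningeal genes among its littermates, 779.9 CPM against 309 and 379. It was also the highest of its group for *Bcl11b* (185 CPM against 142 and 145) and for *Cux1* (233 CPM against 195 and 185).

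**Figure D2:**
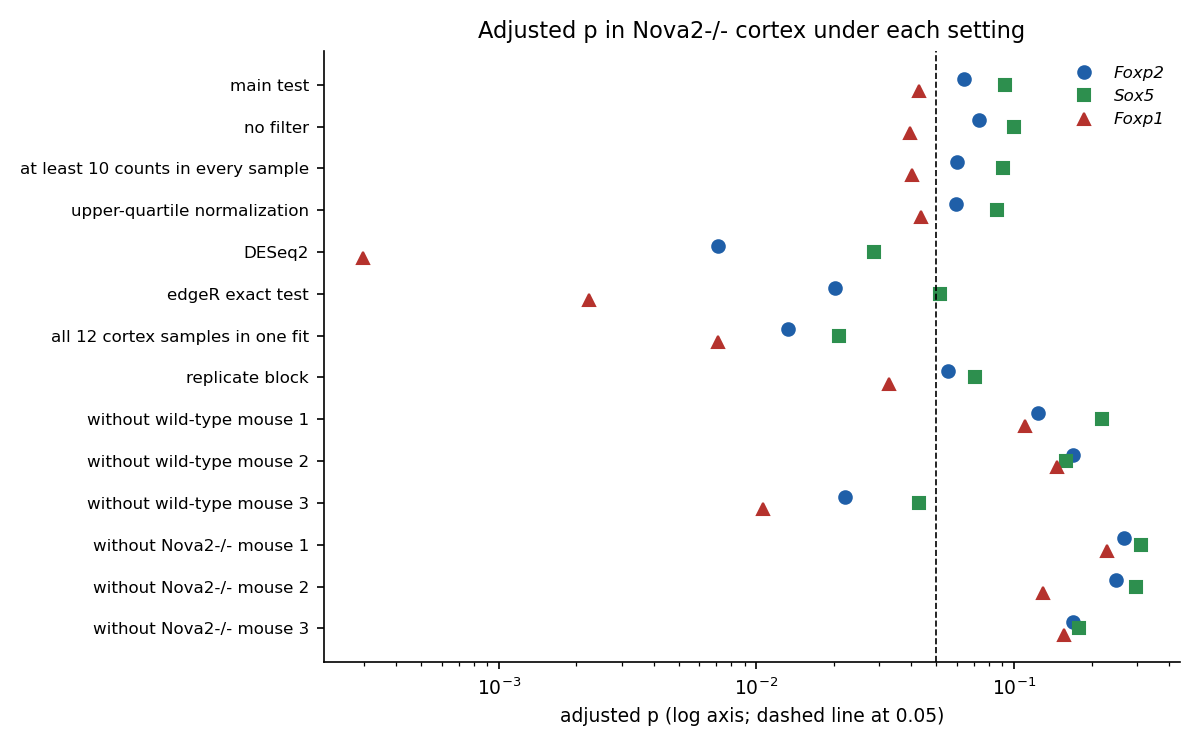
Adjusted p (log axis) of *Foxp2*, *Sox5* and the related gene *Foxp1* in *Nova2-/-* cortex against littermates under the main test and each alternative, with a dashed line at 0.05. *Foxp2* and *Sox5* lie above 0.05 in the main test (0.0639 and 0.0924) and both fall below it without wild-type mouse 3.

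*Foxp2* is also expressed in tissue next to the cortex, the striatum and the thalamus. Summed levels of 10 striatal genes were 223 to 268 CPM in *Nova2-/-* and 236 to 261 CPM in littermates, and those of 7 thalamic genes 164 to 198 and 162 to 205 CPM. Both ranges overlapped, no gene of either list was at 0, and 0 genes of either list passed the test. Most of the thalamic sum came from *Slc17a6*, *Lhx2* and *Calb2*, at means of 71.0, 49.1 and 39.6 CPM over all cortices. These genes also stand on the pan-excitatory, upper-layer and Cajal-Retzius lists used here. The remaining thalamic genes, *Lhx9*, *Rora*, *Tcf7l2* and *Gbx2*, had means of 7.53, 6.98, 4.42 and 0.83 CPM. The thalamic sum therefore cannot show whether thalamic tissue differed between the groups. Part of the exon length of *Sox5* (1330 nt, 9.25%) is shared with the antisense transcript 4933415D12Rik. *Cux1* likewise shares 394 nt (5.16%) with the antisense *Gm16599*, and *Cux2* 414 nt (5.17%) with a pseudogene on the same strand. The counting is not stated to use strand, so reads of these pairs cannot be told apart.

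The 3 other deep-layer factors did not pass in *Nova2-/-*. *Tbr1*, a T-box factor of layer 6 and subplate neurons (chr2:61640987-61652171, plus strand), was at 75.8, 78.6 and 82.3 CPM in littermates and at 72.6, 73.7 and 87.6 CPM in knockouts. The fold was 0.99 with a 95% interval of 0.85 to 1.15. *Bcl11b*, a zinc-finger factor of layer 5 subcerebral neurons (chr12:109148613-109241812, minus strand), was at 142, 145 and 185 CPM in littermates and at 157, 166 and 184 CPM in knockouts, a fold of 1.08 with an interval of 0.90 to 1.28. *Fezf2*, a zinc-finger factor that directs layer 5 neurons to subcerebral targets (chr14:13174406-13178379, minus strand), was at 22.3, 25.7 and 27.1 CPM and at 25.6, 24.7 and 26.6 CPM, a fold of 1.03 with an interval of 0.87 to 1.21. For these genes the groups overlapped, and the intervals leave room for changes of up to 1.28-fold.

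*Rorb*, a nuclear receptor of layer 4 neurons (chr19:19005095-19185686, minus strand), was at 93.7, 92.6 and 76.8 CPM in littermates and at 97.9, 100.3 and 82.7 CPM in *Nova2-/-*. The fold was 1.07 with an interval of 0.91 to 1.26. The lowest mouse of each group was mouse 3, and the groups overlapped.

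The upper-layer factors overlapped between *Nova2-/-* and littermates as well. *Cux1* (chr5:136724005-137043301, minus strand) and *Cux2* (chr5:122308396-122500111, minus strand) encode related cut-homeodomain factors of layers 2 to 4. *Cux1* was at 195, 185 and 233 CPM in littermates and at 189, 197 and 194 CPM in knockouts, a fold of 0.95 with an interval of 0.83 to 1.09. *Cux2* was at 68.2, 80.8 and 63.6 CPM in littermates and at 80.4, 80.5 and 82.0 CPM in knockouts. The *Cux2* knockout values were tightly grouped (80.9 ± 0.89 CPM, SD, n = 3), while the littermates spread over 63.6 to 80.8 CPM, and wild-type mouse 2 alone reached the knockout range. The fold of *Cux2* was 1.15 with an interval of 0.98 to 1.34 (adjusted p = 0.330, edgeR's quasi-likelihood test). *Pou3f2* (chr4:22413791-22415480, minus strand) was at 151, 157 and 127 CPM in littermates and at 148, 161 and 146 CPM in knockouts, a fold of 1.05 with an interval of 0.91 to 1.21.

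**Figure D3:**
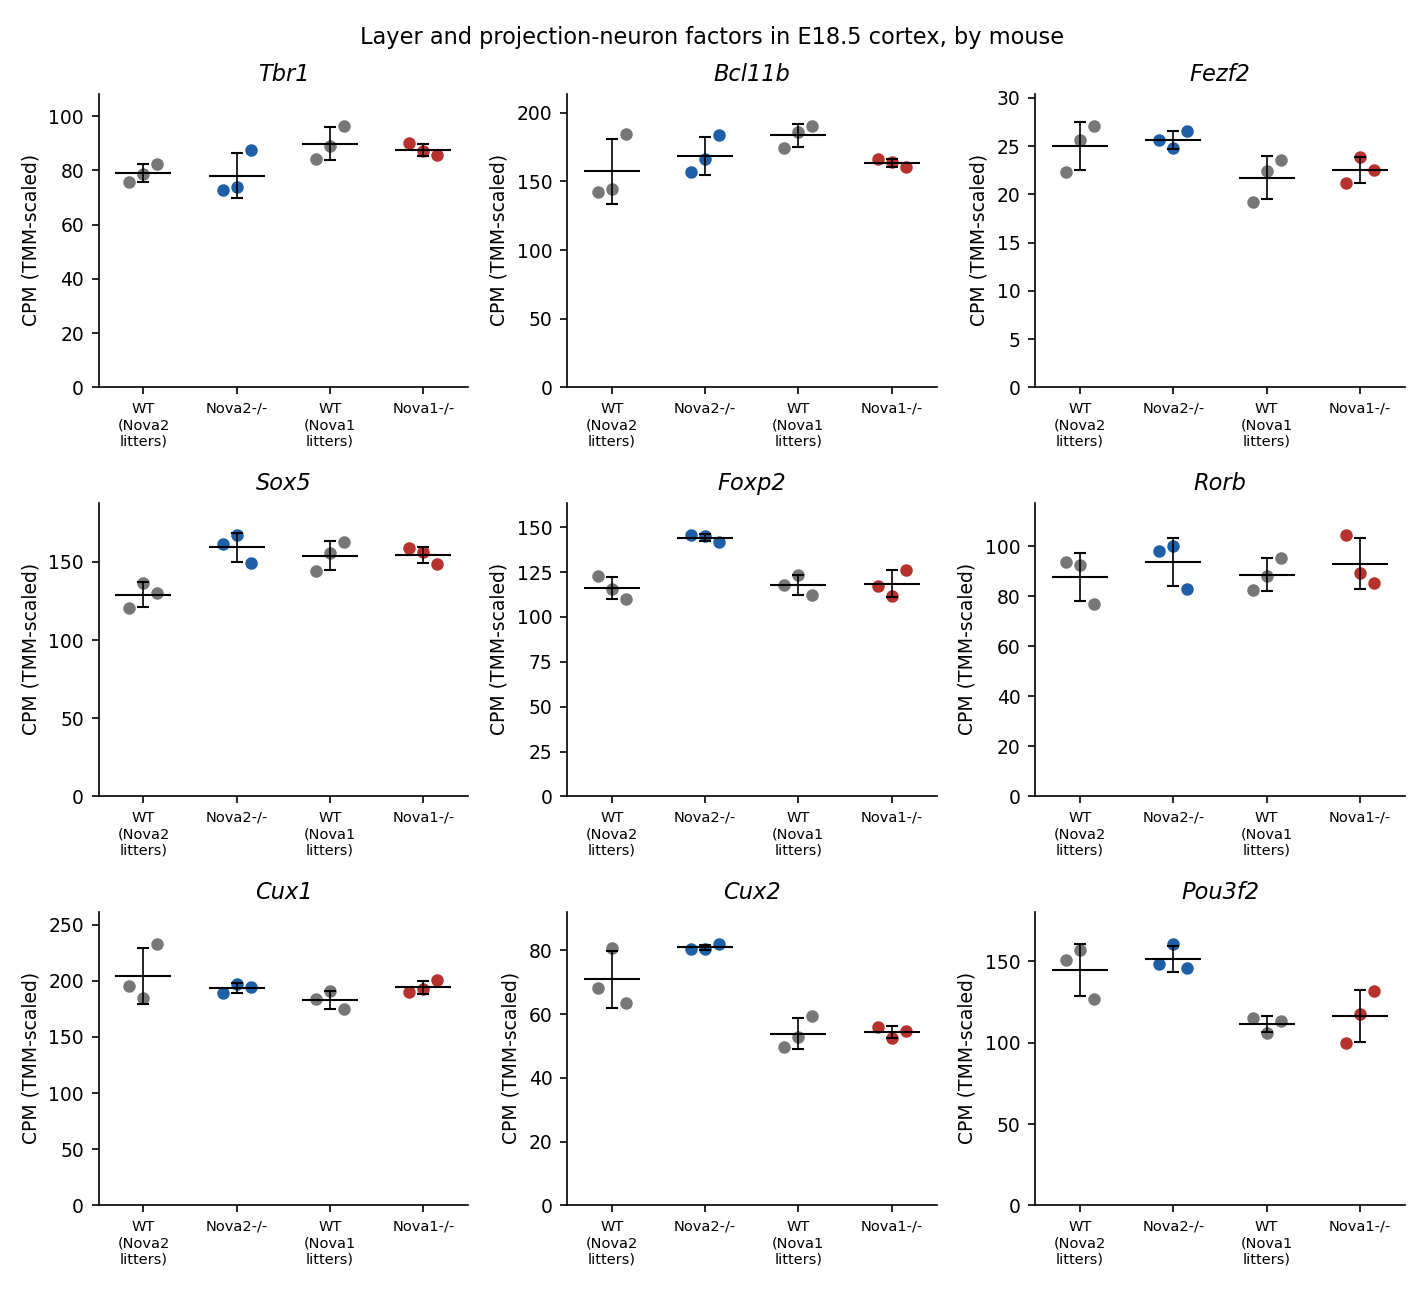
Level of each of the 9 genes in CPM (axis from 0) in the 12 cortices, 1 point for each mouse, grey for wild-type, blue for *Nova2-/-* and red for *Nova1-/-*, with the mean as a long bar and the SD as the error bar. For *Foxp2* the 3 *Nova2-/-* mice, at 142 to 146 CPM, lie above the other 9, the highest of which is at 126 CPM.

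In *Nova1-/-* cortex 0 of the 9 genes passed (edgeR's quasi-likelihood test over 15901 genes, of which 0.0126% passed), and DESeq2 and edgeR's exact test also called 0, beside 0.214% and 0.340% of all genes. Unadjusted p was below 0.05 for 1 of the 9 beside 7.44% of all genes, and the same gene, *Bcl11b*, was the 1 whose groups did not overlap, beside 13.4% of all genes. *Bcl11b* was at 174, 186 and 190.2 CPM in wild-type mice 4 to 6 and at 166, 164 and 160.4 CPM in *Nova1-/-*. Every knockout value was below every wild-type value. The log2 fold change was -0.17 (SE 0.05), a fold of 0.89 with a 95% interval of 0.82 to 0.97, and the adjusted p was 0.522 by the quasi-likelihood test. The knockout values still lay within the 142 to 185 CPM of wild-type mice 1 to 3.

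The other 8 genes had overlapping groups in *Nova1-/-*, with log2 fold changes from -0.04 for *Tbr1* to 0.09 for *Cux1*. *Sox5* was at 144, 155 and 163 CPM in wild-type mice 4 to 6 and at 159, 156 and 149 CPM in *Nova1-/-*, a log2 fold change of 0.00 with a 95% interval of -0.12 to 0.13. *Foxp2* was at 118, 123 and 112 CPM and at 117, 112 and 126 CPM, a fold of 1.01 with an interval of 0.91 to 1.11. *Cux2* was at 49.6, 52.8 and 59.3 CPM and at 56.1, 52.4 and 54.6 CPM, a fold of 1.01 with an interval of 0.90 to 1.13. *Pou3f2* was at 115, 106 and 114 CPM and at 99.8, 118 and 132 CPM, the widest spread among the *Nova1-/-* mice (SD 15.9 CPM). The median absolute log2 fold change of the 9 genes was 0.05, and that of all genes tested 0.08.

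**Figure D4:**
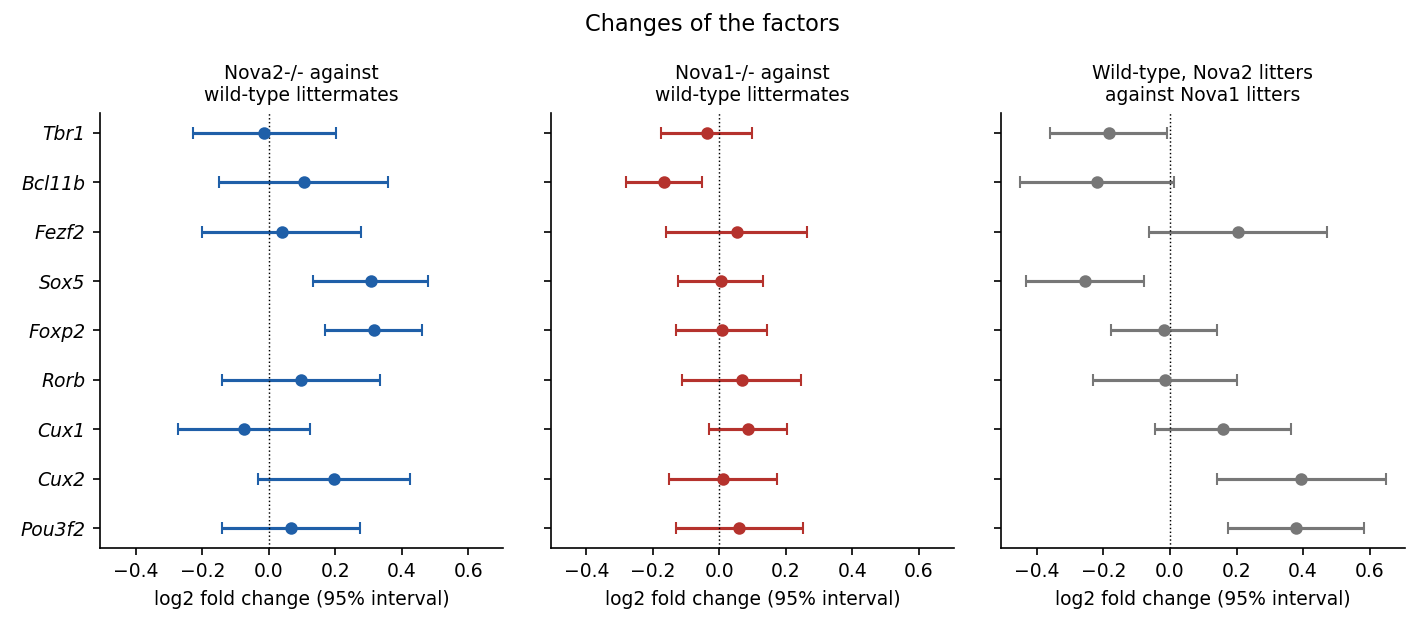
Log2 fold change of each of the 9 genes with its 95% interval in *Nova2-/-* against littermates (blue), in *Nova1-/-* against littermates (red) and in wild-type mice 1 to 3 against wild-type mice 4 to 6 (grey). The intervals of *Sox5* and *Foxp2* lie above 0 in *Nova2-/-* (0.13 to 0.48 and 0.17 to 0.46), and those of *Cux2* and *Pou3f2* lie above 0 between the wild-type sets.

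Whether the changes of the knockouts differed from each other was tested in one fit of the 12 cortices, as *Nova2-/-* less *Nova1-/-*, and 0 of the 9 genes passed, beside 1.83% of 16210 genes. The difference was 0.30 on the log2 scale for *Foxp2* (95% interval 0.10 to 0.49, adjusted p = 0.110, edgeR's quasi-likelihood test) and 0.29 for *Sox5* (0.08 to 0.50, adjusted p = 0.132). Unadjusted p was below 0.05 for these 2 of the 9 genes beside 18.2% of all genes. DESeq2 called 1 of the 9, *Foxp2* (adjusted p = 0.0454), beside 5.25% of all genes. Without wild-type mouse 3 the quasi-likelihood test called 1 of the 9 beside 6.15% of all genes, *Bcl11b*, at a difference of 0.40 (adjusted p = 0.0200), where with all mice it was 0.26 (adjusted p = 0.297).

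Between the 2 sets of wild-type cortex the median absolute log2 fold change of the 9 genes was 0.20, where it was 0.10 and 0.05 in the knockouts, and 0.16 for all genes. By the quasi-likelihood test 0 of the 9 genes passed, beside 3.03% of 15918 genes, and unadjusted p was below 0.05 for 4 of the 9 beside 21.1% of all genes. DESeq2 and edgeR's exact test each called 2 of the 9, *Cux2* and *Pou3f2*, beside 8.37% and 7.26% of all genes. The groups did not overlap for 4 of the 9 genes, beside 26.9% of all genes.

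*Pou3f2* was at 151, 157 and 127 CPM in wild-type mice 1 to 3 and at 115, 106 and 114 CPM in wild-type mice 4 to 6, a fold of 1.30 with a 95% interval of 1.13 to 1.50 (adjusted p = 0.0581, edgeR's quasi-likelihood test). *Cux2* was at 68.2, 80.8 and 63.6 CPM and at 49.6, 52.8 and 59.3 CPM, a fold of 1.32 with an interval of 1.10 to 1.57 (adjusted p = 0.0914, same test). Both upper-layer factors were higher in every one of wild-type mice 1 to 3. *Sox5* and *Tbr1*, deep-layer factors, were lower in every one of those mice, with folds of 0.84 (0.74 to 0.95) and 0.88 (0.78 to 0.99). Not all of the other factors divided by layer in this way. The deep-layer factor *Fezf2* had a log2 fold change of 0.20 (95% interval -0.06 to 0.47), and *Foxp2* and *Rorb* were both at -0.02. The deep-layer factor *Bcl11b* was at -0.22 (-0.45 to 0.01) and the upper-layer factor *Cux1* at 0.16 (-0.04 to 0.36). These had the same directions by layer, with intervals that included 0. Without wild-type mouse 3 the quasi-likelihood test called 4 of the 9 genes, *Cux2*, *Pou3f2*, *Sox5* and *Bcl11b*, beside 22.3% of all genes. Litter, dissection, library preparation and the making of the counts cannot be told apart between these sets. Estimated counts that were not whole made up at most 11.7% of values in each of wild-type mice 1 to 3. In each of wild-type mice 4 to 6 they made up at least 18.6%. The part of this in the differences was not tested. The meningeal genes given above differed between the sets too, with 5 of 15 called lower in wild-type mice 1 to 3.

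The balance of deep-layer against upper-layer factors was described as the mean log2 CPM of *Tbr1*, *Bcl11b*, *Fezf2*, *Sox5* and *Foxp2* minus that of *Cux1*, *Cux2*, *Rorb* and *Pou3f2*, with no test, since the genes were chosen. It was -0.44 ± 0.13 (SD, n = 3) in wild-type mice 1 to 3 and -0.36 ± 0.09 in *Nova2-/-*, with ranges that overlapped. It was -0.12 ± 0.04 in wild-type mice 4 to 6 and -0.20 ± 0.03 in *Nova1-/-*, with ranges that did not. The gap between the wild-type sets was larger than either difference between a knockout and its littermates.

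Of 13 other deep-layer genes 1 passed in *Nova2-/-*, beside 1.06% of all genes tested. Unadjusted p was below 0.05 for 4 of the 13 that were lower and 1 that was higher, beside 19.2% of all genes. The gene that passed was *Foxp1*, a forkhead gene related to *Foxp2* that is expressed in cortical plate neurons and in the striatum. *Foxp1* was at 263, 277 and 267 CPM in littermates and at 203, 221 and 195 CPM in *Nova2-/-*, so that all 3 knockouts were lower. The log2 fold change was -0.38 (SE 0.07, adjusted p = 0.0427, edgeR's quasi-likelihood test). The direction was thus opposite to that of *Foxp2* in the same mice. The call was lost without any one of 5 of the 6 mice (log2 fold change -0.44 to -0.35 over the 6 fits, adjusted p 0.0106 to 0.230) and was kept in all 7 other alternatives (adjusted p 2.96e-04 to 0.0435). In *Nova1-/-* the log2 fold change of *Foxp1* was -0.02 (adjusted p = 0.968), and the difference between the knockouts' changes was -0.37 (adjusted p = 0.0795). Over the 13 genes the median log2 fold change in *Nova2-/-* was 0.05 and in *Nova1-/-* -0.02.

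Of 12 other upper-layer genes 0 passed in either knockout by the quasi-likelihood test. Unadjusted p was below 0.05 for 2 in *Nova2-/-*, beside 19.2% of all genes, and for 0 in *Nova1-/-*, beside 7.44%. The smallest p in *Nova2-/-* belonged to *Mdga1*, a cell-surface protein of upper-layer neurons, at 54.2, 50.8 and 49.8 CPM in littermates and 68.1, 64.9 and 83.8 CPM in knockouts. Its log2 fold change was 0.49 (SE 0.11, adjusted p = 0.0794), and DESeq2 called it (adjusted p = 0.00353). The most abundant gene of the list, *Ptn*, had log2 fold changes of 0.00 in *Nova2-/-* and -0.07 in *Nova1-/-*. The smallest p in *Nova1-/-* belonged to *Unc5d*, a netrin receptor of upper-layer neurons, with a log2 fold change of 0.13 (adjusted p = 0.713).

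Subplate and Cajal-Retzius genes border the layers described here. Of 6 subplate genes 0 passed in *Nova2-/-*, with 2 at an unadjusted p below 0.05 beside 19.2% of all genes. *Lpar1* had the smallest p, at 9.78, 10.9 and 16.6 CPM in littermates and 20.4, 18.6 and 17.2 CPM in knockouts (log2 fold change 0.59, adjusted p = 0.166, edgeR's quasi-likelihood test). *Nr4a2*, the most abundant subplate gene, had a log2 fold change of 0.38 (adjusted p = 0.210). Of 6 Cajal-Retzius genes 0 passed, with 0 at an unadjusted p below 0.05, and *Reln*, the secreted guide of cortical layering, was at 658, 749.9 and 935 CPM in littermates and 940, 845 and 1200 CPM in knockouts, where the groups overlapped. In *Nova1-/-* 0 genes of either list passed, and *Tmem163*, a subplate gene, had the smallest p there (log2 fold change -0.32, adjusted p = 0.587). In the deep-layer list of *Nova1-/-*, the smallest p belonged to *Etv1*, a factor of layer 5 (-0.31, adjusted p = 0.435), and the most abundant gene, *Nfib*, was at 0.09 on the log2 scale. Among 9 interneuron genes, *Sst* alone passed in *Nova2-/-* (log2 fold change -0.83, adjusted p = 0.0366, edgeR's quasi-likelihood test), beside 1.06% of all genes tested.

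**Figure D5:**
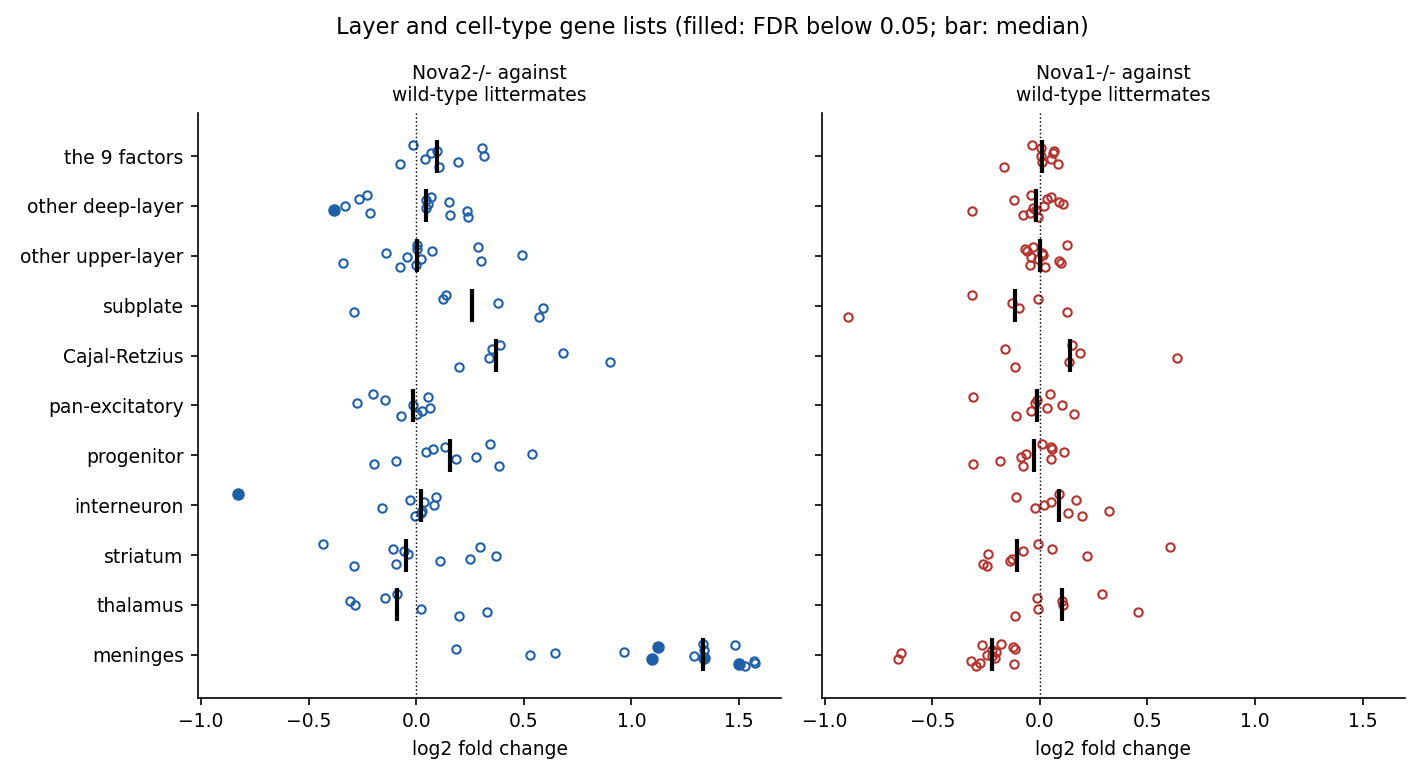
Log2 fold changes of the genes of each list in *Nova2-/-* (left) and *Nova1-/-* (right) against littermates, 1 point for each gene, filled where FDR was below 0.05, with the list's median as a bar. In *Nova2-/-* the other deep-layer and upper-layer genes lie between -0.38 (*Foxp1*, the filled point among deep-layer genes) and 0.49 (*Mdga1*), with *Foxp2* at 0.32 as the highest of the 9 factors, and the 15 meningeal genes lie above 0 in *Nova2-/-* with a median of 1.33.

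*Cux2* was the 1 member with a row in the table of 1991 NOVA2-dependent splicing events, which covers 539 gene symbols. The event is a cassette exon spanning chr5:122374814-122500116 on the minus strand (mm9). The deposited ΔI, inclusion in wild-type minus inclusion in knockout, with 1 value for each comparison and no value for single mice, was -0.208 in *Nova2-/-* cortex, so the exon was included more in the knockout. It was -0.0774 in *Nova1-/-* cortex and 0.0776 in *Nova1-/-* midbrain and hindbrain. Events entered the table partly by their change in *Nova2-/-*, so these values are a description.

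The table gives the span of the event and not the exon. The only annotated internal exon inside the span is 75 nt long, at chr5:122493779-122493853, and is noncoding in the 2 transcripts that carry it (GENCODE M1). NOVA proteins bind YCAY, so the sequence around that exon is shown, 5′ to 3′ on the transcribed strand of mm9, with each YCAY (Y is C or T) in capitals. The first line is the end of the intron before the exon (chr5:122493854-122493953), the second the last 30 nt of the exon (chr5:122493779-122493808) and the third the start of the intron after it (chr5:122493679-122493778).

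upstream intron: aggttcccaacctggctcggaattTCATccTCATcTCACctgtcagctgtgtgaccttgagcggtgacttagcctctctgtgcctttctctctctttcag

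exon end: agcagagcgtggggcgtgcgaTCATgcttt

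downstream intron: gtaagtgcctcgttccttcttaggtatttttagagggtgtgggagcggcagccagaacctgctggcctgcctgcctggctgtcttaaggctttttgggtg

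The upstream 100 nt held 3 YCAY close together, and 23.6% of 1287 annotated internal exons of the same length held at least as many in that window. The downstream 100 nt held 0, where 75.9% of those exons held at least 1. The search was on the transcribed strand alone. The study's criteria for these events included YCAY inside clusters of NOVA-bound RNA, on the exon or its neighbouring introns. Those clusters came from HITS-CLIP, which sequences RNA crosslinked to the protein, and were not analysed here. The count is therefore a description, and a match alone is not a binding site.

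The genes whose levels followed each factor most closely over the 12 cortices were found by the root mean square difference of centred log2 CPM among 15566 genes. *Foxp2* was nearest to *N4bp2* and *Map3k13* (0.06 for both, on the log2 scale), *Sox5* to *Pfkp* and *Rnf112* (0.05 and 0.06), *Tbr1* to *Ube3b* and *Kcnf1* (0.05 for both) and *Bcl11b* to *Gtpbp1* and *Dnm2* (0.05 and 0.06). *Cux1* was nearest to *Ddx55* and *Maged1* (0.04 and 0.05), *Cux2* to *Sema6c* and *D19Wsu162e* (0.08 and 0.09), *Fezf2* to *Mfn1* and *Gramd4* (0.07 for both), *Rorb* to *Odz1* and *Rab9b* (0.06 and 0.07) and *Pou3f2* to *Dlx1as* and *Tprkb* (0.07 for both). Among the 9 factors themselves the closest pairs were *Tbr1* with *Bcl11b* (0.10), *Fezf2* with *Cux1* (0.13), *Sox5* with *Rorb* (0.13) and *Cux2* with *Pou3f2* (0.14). The pairs share libraries, and the differences between the wild-type sets given above enter every value.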

How the data were processed

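RNA was sequenced from whole embryonic day 18.5 cortex after ribosomal RNA removal, 3 mice in each of 4 groups. The authors aligned paired-end reads with OLego and deposited estimated counts per gene symbol, not normalized. The counting program is not given in the sources used here. Values were not whole in 12 of 12 mice for *Cux1*, 11 for *Sox5*, 5 for *Cux2*, 2 for *Foxp2* and 1 for *Bcl11b*. Over the whole table, at most 11.7% of values were not whole in any *Nova2-/-* mouse or wild-type mouse 1 to 3. At least 18.6% were not whole in every *Nova1-/-* mouse and wild-type mouse 4 to 6. Whether the counting differed between these sets was not tested. The comparison of the wild-type sets and the fits of all 12 cortices include this difference. Estimated counts were rounded. Fold changes and FDR values of the authors' own comparisons stand in the same table and were not used. For splicing the authors deposited ΔI, a difference of inclusion fractions (from -1 to 1, replicates combined), with coordinates in mm9, and its FDR, which was not used. Wild-type mice 1 to 3 were set beside *Nova2-/-* and 4 to 6 beside *Nova1-/-*, by the titles' numbers and the study's methods.

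Counts were tested with edgeR 4.0.16 (R 4.3.3) by the quasi-likelihood test, with TMM scaling, filterByExpr and Benjamini-Hochberg adjustment over all genes, at FDR below 0.05. No gene of the 9 had an absolute log2 fold change of 1, the study's further threshold. The pipeline was tested on simulated data with changes far larger than those of the 9 factors, so that test does not show whether changes of their size would be found. DESeq2 1.42.0 and edgeR's exact test were alternatives. Intervals use the t distribution at 95%. Log2 CPM for likeness used a prior count of 1. The genes and the lists were chosen with earlier results of these data known. Genes named from other lists were those called or, where a list had none, those with the smallest p and the highest CPM, and for each factor the 2 nearest genes. The labels do not say more than that samples are separate mice, so each p-value weighs a difference between groups against the spread between mice. Litter and preparation were not in the model.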

Additional observations from a re-analysis of the deposited data

Results flagged for a closer look

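None of the 9 factors is listed here: single distant mice were not tested for in groups of 3, and no factor's change differed between the knockouts at FDR below 0.05 in the quasi-likelihood test. Among the genes of the other lists, 10 differed between the knockouts in that test, where 1.83% of all 16210 genes did. They were 1 of 9 interneuron genes, 7 of 15 meningeal genes and 2 of 10 genes of endothelium and microglia. These lists were chosen with earlier results of these data known, so the counts are a description. The log2 fold change in *Nova2-/-* minus that in *Nova1-/-* was -0.93 for the interneuron gene *Sst* (-0.83 and 0.09 in the 2 knockouts, adjusted p = 0.0147). For 7 meningeal genes it was 1.61 for *Col1a1*, 1.84 for *Col1a2*, 1.88 for *Col3a1*, 1.74 for *Crabp2*, 1.53 for *Dcn*, 1.54 for *Lum* and 1.24 for *Ogn* (adjusted p 0.00689 to 0.0395, edgeR's quasi-likelihood test). It was 1.14 for *Kdr* and 0.71 for *Csf1r*, genes of endothelium and microglia. Wild-type mice 1 to 3 stood apart for the meningeal genes, at 309 to 779.9 CPM summed against 985 to 1458 in the other 9 mice.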

How the results depend on the processing

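In *Nova2-/-* the number of genes called was 166 in the main test, 846 with DESeq2, 624 with edgeR's exact test and 1334 with all 12 cortices in one fit, which called 2, 1 and 2 of the 9 factors where the main test called 0. Leaving out 1 mouse gave 7 to 1433 genes and 0 to 2 factors. In *Nova1-/-* 2 genes were called, 34 with DESeq2, 54 with the exact test and 1 with at least 10 counts in every sample, and 1 to 10 without 1 mouse, with 0 factors each time. For the difference between the knockouts' changes the 296 genes became 851 with DESeq2, with 1 factor, and 113 to 1005 without 1 mouse, with 0 to 1 factor. Between the wild-type sets the 483 genes became 1333 with DESeq2, 1156 with the exact test and 1590 with all 12 cortices, with 2, 2 and 3 factors, and 3 to 3561 without 1 mouse, with 0 to 4 factors. Without a filter, 1 factor (*Pou3f2*) passed there. In the 3 comparisons that include it, the fit without wild-type mouse 3 gave the highest count of those that left out 1 mouse. No call of a named gene reversed. In the order of wild-type levels 5 of the 9 genes moved with the longest transcript's length and 3 with the RefSeq length of *Pou3f2*, an alternative chosen after seeing the data. With a replicate block in *Nova2-/-*, 220 genes and 0 factors were called, 141 of the genes shared with the 166. The replicate numbers were not taken as pairs, since the study's methods name no block. The deviations of same-numbered mice correlated at 0.12, 0.0042 and 0.16, and those of unlike-numbered mice at -0.20 to 0.11. These values do not settle whether the mice were paired. At 3 mice a group, the interval of the fold of *Bcl11b* in *Nova2-/-* was 0.90 to 1.28, which limits what change could be detected. The cause of these shifts was not tested.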
